A study of Mus musculus with 15 samples.

Results

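The p53 protein is a transcription factor that is stabilised when DNA is damaged or cells are stressed, and that switches on genes for cell cycle arrest, repair, metabolic restraint and cell death. Its own ubiquitin ligase Mdm2 is among its targets, so the pathway limits itself through a feedback loop. In brain macrophages p53 has been studied as a regulator of inflammatory and repair states as well as of survival. The genes described here were chosen by name: Trp53, which encodes p53, and the pathway genes Mdm2, Cdkn1a, Ccng1, Sesn1, Sesn2, Trp53inp1, Bax, Phlda3 and Zmat3. All 10 were found among the 11201 genes of the table, and all 10 passed the filter on low values. Because p53 is regulated largely at the protein level, its messenger RNA is not a measure of its activity, and protein was not measured.

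Messenger RNA was sequenced from ESdM, microglia-like cells grown from C57BL/6 mouse embryonic stem cells in a medium with N2 supplement. Cells were stimulated for 24 h with LPS (lipopolysaccharide from bacterial walls) at 500 ng/ml together with IFNg (interferon gamma) at 20 ng/ml, with IL4 (interleukin 4) at 100 U/ml, or with TGFb (transforming growth factor beta) at 50 ng/ml, in 3 libraries each, or were left untreated in 6 libraries. All groups came from the same kind of stem-cell-derived culture, which stands in for brain microglia, and the labels do not state whether replicate libraries were made from independent cultures. The p-values therefore measure the spread between libraries, which may be technical.

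The upstream windows of the genes are shown first, because the sequence that p53 binds is a known composite motif and Cdkn1a is its textbook target. RefSeq windows (GRCm38.p6) from 250 bases before to 50 after a transcription start were found for 8 of the 10 genes, in 10 windows. The p53 element, searched by name as 2 adjacent decamers of 10 bases with no spacer and at most 1 mismatch, on both strands, occurred in 29 of 32851 windows, or 0.0883%. Of the windows of these genes it was found in 2, each with 1 mismatch. In the window of Cdkn1a at start site 1, chr17:29090729-29091028 (plus strand), it lay at positions -51 to -32 from that start. The other Cdkn1a window, at start site 2 (chr17:29093519-29093818), held no matched motif. In the window of Ccng1 at chr11:40755237-40755536 (minus strand) it lay at positions -195 to -176. The NF-kB consensus, also searched by name, was found in 8.46% of all windows and here in that of Trp53 at chr11:69580109-69580408 (plus strand), across the start. The FOXO motif TGTTTAC was found in 3.65% of all windows. Here it was found, read on the opposite strand, in the window of Mdm2 at chr10:117710709-117711008 (minus strand). On the gene's own strand it was found in the window of Sesn1 at chr10:41810324-41810623 (plus strand). The other Sesn1 window, at chr10:41887189-41887488, held no matched motif. The sequences run 5′ to 3′ on the strand of the gene, and capitals mark the matched motif.
Cdkn1a: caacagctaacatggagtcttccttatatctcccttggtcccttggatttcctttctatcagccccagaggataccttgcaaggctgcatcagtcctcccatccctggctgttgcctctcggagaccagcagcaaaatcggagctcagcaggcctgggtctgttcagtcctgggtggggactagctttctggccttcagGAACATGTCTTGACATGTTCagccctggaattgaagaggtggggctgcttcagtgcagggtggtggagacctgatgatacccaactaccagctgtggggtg
Ccng1: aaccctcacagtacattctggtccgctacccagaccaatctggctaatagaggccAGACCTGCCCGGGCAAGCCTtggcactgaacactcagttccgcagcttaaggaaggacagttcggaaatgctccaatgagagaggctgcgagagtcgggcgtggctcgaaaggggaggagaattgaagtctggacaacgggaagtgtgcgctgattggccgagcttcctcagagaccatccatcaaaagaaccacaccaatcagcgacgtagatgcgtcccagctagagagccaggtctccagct
Trp53: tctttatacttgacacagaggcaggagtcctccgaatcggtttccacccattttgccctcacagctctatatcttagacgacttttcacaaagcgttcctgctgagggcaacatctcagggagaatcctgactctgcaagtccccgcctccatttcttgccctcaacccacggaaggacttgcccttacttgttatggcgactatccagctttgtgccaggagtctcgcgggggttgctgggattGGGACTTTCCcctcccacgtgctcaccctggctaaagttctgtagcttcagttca
Mdm2: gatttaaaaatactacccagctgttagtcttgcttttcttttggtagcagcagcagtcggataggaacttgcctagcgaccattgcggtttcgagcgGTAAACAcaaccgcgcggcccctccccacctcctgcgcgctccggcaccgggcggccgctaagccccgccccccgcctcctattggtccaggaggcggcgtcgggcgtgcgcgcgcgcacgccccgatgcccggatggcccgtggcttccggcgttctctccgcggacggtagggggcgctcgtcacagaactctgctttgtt
Sesn1: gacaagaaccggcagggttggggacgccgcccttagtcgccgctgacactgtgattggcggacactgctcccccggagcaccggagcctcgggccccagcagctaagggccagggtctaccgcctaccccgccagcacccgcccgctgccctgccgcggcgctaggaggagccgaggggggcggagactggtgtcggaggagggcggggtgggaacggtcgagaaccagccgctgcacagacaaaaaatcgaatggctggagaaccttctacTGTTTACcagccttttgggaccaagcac
No matched motif overlapped another. The interferon GAS motif TTCNNNGAA (8.3% of all windows), the SMAD palindrome GTCTAGAC (0.213%) and the ATF4 composite TGATGNAA (3.97%) were not matched in the 10 windows. A match describes letters in the window, and binding was not measured. The search did not cover p53 elements outside these windows, with a spacer or with more than 1 mismatch. Genes without a match are therefore not shown to lack one.

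The libraries held between 2682564 and 18676181 reads in the table (median 7589049), and the reads behind a value of the 10 genes numbered from 50 for Sesn2 in a TGFb library to 5693 for Cdkn1a in an untreated library. LPS+IFNg replicate 3 stood apart from its group. Its root mean square log2 difference over genes was 0.451 and 0.474 from the other LPS+IFNg libraries, which differed from each other by 0.242. Untreated replicate 4, the library with the fewest reads, differed by 0.374 to 0.407 from the other untreated libraries. Those differed from each other by 0.22 to 0.333. Of 10 microglia markers 9 were in the table. Their summed normalized count lay between 17179 and 18995 with LPS+IFNg, 19470 and 19826 with IL4, 22630 and 23575 with TGFb, and 17112 and 18379 in untreated cells. The homeostatic microglia genes Cx3cr1 and Tmem119 were low outside the TGFb group. Cx3cr1 averaged 3.30 normalized counts with LPS+IFNg, 1.49 with IL4, 39.5 with TGFb and 2.60 in untreated cells, and Tmem119 averaged 1.86, 2.03, 82.3 and 7.62 in the same order. P2ry12 was the listed microglia marker not found in the table, so it was not analysed here. Of the markers of other cells, 2 of 6 astrocyte genes were in the table, with sums from 100.0 to 111 with LPS+IFNg, 72.7 to 109 with IL4, 65.7 to 85.4 with TGFb and 39.6 to 80.9 in untreated cells, and 2 of 6 oligodendrocyte genes, with sums from 15.6 to 43.2 over all groups. The part of these differences in the results was not tested. In bulk RNA, fewer cells of a type and less RNA per cell cannot be told apart.

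The pathway did not move as a block. Of the 10 genes, 5 rose with LPS+IFNg (Mdm2, Sesn2, Trp53, Trp53inp1 and Cdkn1a) and 1, Sesn1, fell, against backgrounds of 29.5% of all 11138 tested genes called higher and 29.4% called lower. With IL4, 2 rose (Sesn1 and Cdkn1a), with 9.89% of all genes called higher and 7.33% lower. With TGFb, 2 rose (Phlda3 and Trp53inp1) and 6 fell (Sesn2, Sesn1, Zmat3, Bax, Mdm2 and Ccng1), with 24.1% of all genes called higher and 23.4% lower. The counts are of genes with a Benjamini-Hochberg adjusted p below 0.05 in limma, and the 3 comparisons share the untreated libraries. The median absolute log2 fold change of the 10 genes was 0.35 with LPS+IFNg, 0.13 with IL4 and 0.22 with TGFb, close to 0.31, 0.13 and 0.24 over all genes tested. Of all genes called, the share called higher was 50.0% with LPS+IFNg, 57.4% with IL4 and 50.8% with TGFb, and it became 35.5%, 34.0% and 37.8% when each library was rescaled to the same total. That rescaling moved the median log2 fold change of all genes with LPS+IFNg to -0.12, and quantile normalization gave 38.6% with LPS+IFNg.

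**Figure D1:**
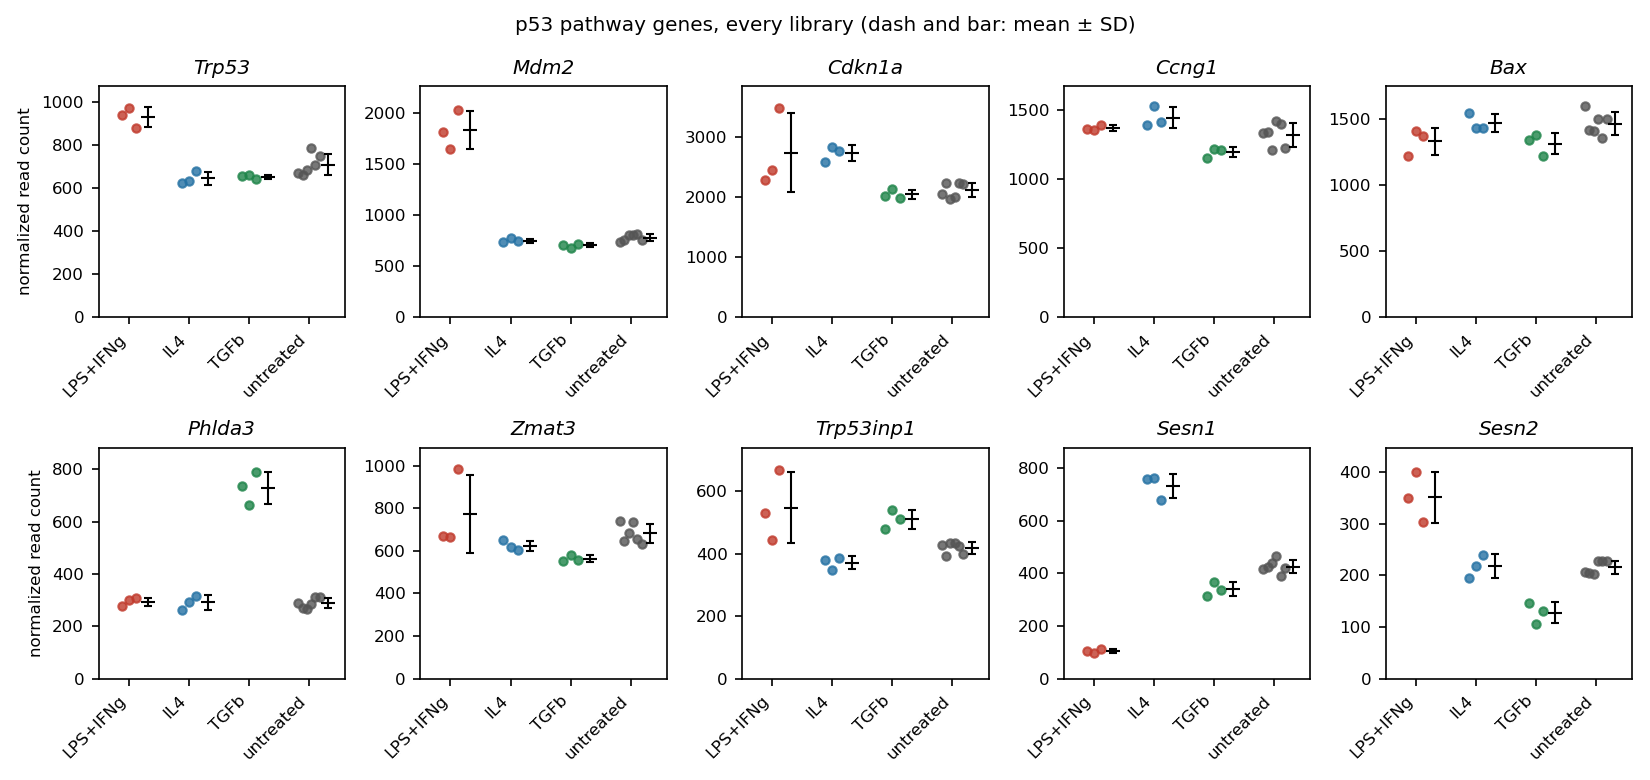
Normalized read count of each of the 10 genes (vertical axes, from 0, a separate scale for each gene) in every library of the 4 groups, with the mean and SD as a dash and bar. Mdm2 and Sesn1 with LPS+IFNg, Phlda3 with TGFb and Sesn1 with IL4 stand clear of the untreated libraries, and the highest Cdkn1a, Zmat3 and Trp53inp1 points are all LPS+IFNg replicate 3.

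Trp53 and Mdm2, the factor and its inhibitor, both rose with LPS+IFNg. Trp53 (chr11:69580359-69591873, plus strand; positions are GRCm38, GENCODE M21) had 938, 971 and 878 normalized counts with LPS+IFNg, 622, 631 and 681 with IL4, 654, 662 and 642 with TGFb, and a lowest, median and highest value of 659, 694 and 785 in untreated cells. Every LPS+IFNg library lay above every other library, and the IL4 and TGFb libraries overlapped the lower untreated ones. The log2 fold change against untreated was 0.39 (SE 0.059) with LPS+IFNg, with an adjusted p of 1.36e-05. With IL4 it was -0.13 (95% interval -0.26 to -0.011, adjusted p 0.134) and with TGFb -0.12 (95% interval -0.24 to 0.0078, adjusted p 0.116), neither of which passed. Both passed when each library was rescaled to the same total, at -0.20 (adjusted p 0.0423) with IL4 and -0.19 (adjusted p 0.0236) with TGFb, and the value with TGFb also passed with library weights (-0.11, adjusted p 0.0307). The intervals are not adjusted for the number of genes.

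Mdm2 (chr10:117688875-117710758, minus strand), the ligase that marks p53 for degradation, changed most among the genes that rose with LPS+IFNg. Its normalized counts were 1819, 1654 and 2032 with LPS+IFNg, 736, 774 and 744 with IL4, 710, 683 and 720 with TGFb, and 739, 782 and 814 (lowest, median and highest) in untreated cells. The LPS+IFNg libraries were all more than any library of the other groups, and the TGFb libraries lay just under the untreated range. Mdm2 was 2.35-fold higher with LPS+IFNg than in untreated cells, a log2 fold change of 1.23 (SE 0.057, adjusted p 1.23e-12). With TGFb it fell by 0.15 on the log2 scale (SE 0.057, adjusted p 0.0406), and with IL4 the log2 fold change was -0.05 (adjusted p 0.579). The call with TGFb was lost without any one of the TGFb libraries or of untreated replicates 3, 4 and 5 (-0.13 to -0.16, adjusted p 0.0646 to 0.149).

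Set against each other per kilobase of the longest transcript, Mdm2 and Trp53 were at similar levels outside LPS+IFNg. The ratio of the Mdm2 to the Trp53 level within a library was 2.07 ± 0.32 with LPS+IFNg (SD, n = 3), 1.22 ± 0.071 with IL4 (n = 3), 1.12 ± 0.046 with TGFb (n = 3) and 1.15 ± 0.074 in untreated cells (n = 6). The lowest ratio with LPS+IFNg was 1.77 and the highest in untreated cells 1.23, so these groups did not overlap. This ratio is a description and was given no test. Its absolute size depends on the lengths used, while its differences between groups do not. The longest transcripts have 3145 bases for Mdm2 and 3275 for Trp53, and all exons merged have 5083 and 4045.

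**Figure D2:**
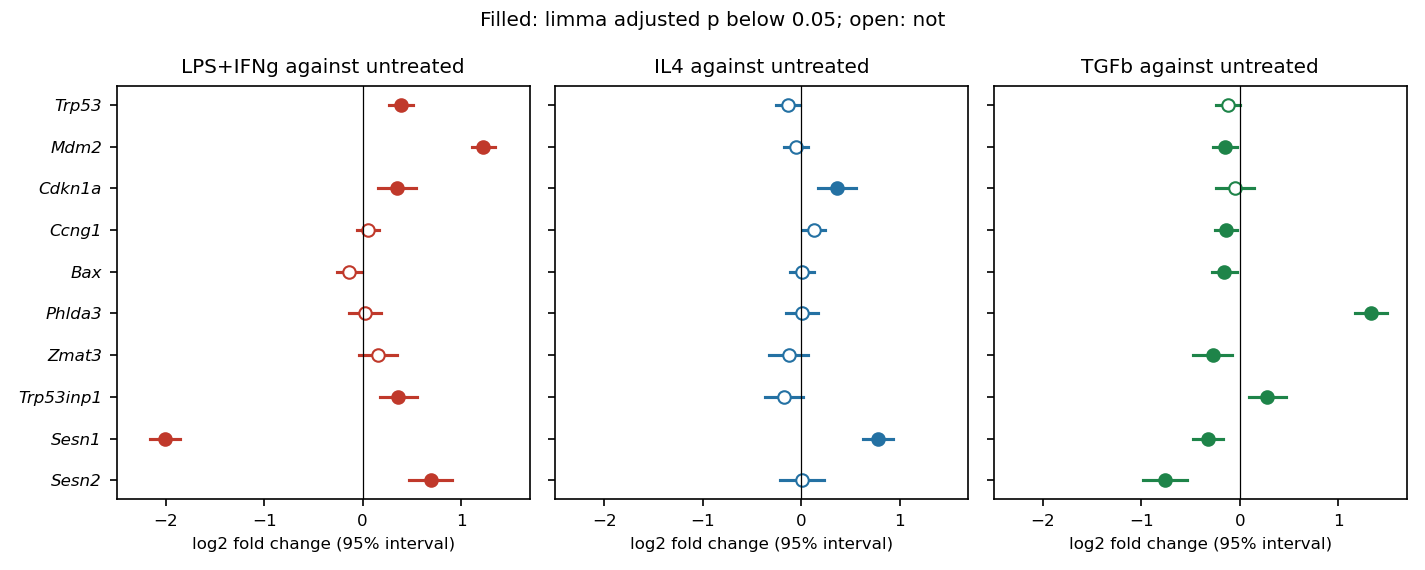
Log2 fold change (horizontal axes) of the 10 genes with LPS+IFNg, IL4 and TGFb against untreated, with the 95% interval as a line. Filled points passed an adjusted p below 0.05 in limma. Sesn1 lies at -2.01 with LPS+IFNg and 0.78 with IL4, and Phlda3 at 1.33 with TGFb and near 0 elsewhere.

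Cdkn1a (chr17:29090976-29100727, plus strand) encodes p21, the inhibitor of cyclin-dependent kinases through which p53 arrests the cell cycle, and it rose modestly with 2 of the stimuli. Its normalized counts were 2283, 2446 and 3492 with LPS+IFNg, 2579, 2836 and 2775 with IL4, 2026, 2136 and 1990 with TGFb, and 1970, 2140 and 2236 (lowest, median and highest) in untreated cells. All IL4 libraries were above the untreated range, LPS+IFNg replicate 3 was far above the other libraries of its group, and TGFb lay within the untreated range. The log2 fold change was 0.35 (SE 0.092, adjusted p 0.00337) with LPS+IFNg, 0.37 (SE 0.092, adjusted p 0.00929) with IL4 and -0.05 (SE 0.092, adjusted p 0.705) with TGFb. Without LPS+IFNg replicate 3 the value with LPS+IFNg was 0.16 (adjusted p 0.0198), and the call with IL4 was lost without IL4 replicate 2 (0.34, adjusted p 0.0613) and without the 3 shallowest libraries (0.34, adjusted p 0.0566). A short unconfirmed transcript, AC167363.2, overlaps Cdkn1a on the other strand, and whether counting used strand is not given in the sources used here.

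Ccng1 (chr11:40748552-40755311, minus strand) encodes cyclin G1, which brings a phosphatase to Mdm2, and it moved little. Its window carries the p53 element shown above. It averaged 1370 ± 21.4 normalized counts with LPS+IFNg, 1445 ± 76.3 with IL4, 1195 ± 34.3 with TGFb (SD, n = 3 each) and 1322 ± 86.7 in untreated cells (n = 6). The log2 fold changes against untreated were 0.05 with LPS+IFNg (95% interval -0.06 to 0.17, adjusted p 0.400), 0.13 with IL4 (95% interval 0.016 to 0.24, adjusted p 0.113) and -0.14 with TGFb (adjusted p 0.0365). The libraries of TGFb and untreated cells overlapped, and the call was lost without any one of the TGFb libraries or of untreated replicates 1, 2, 4 and 5 (-0.12 to -0.16, adjusted p 0.0561 to 0.151).

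The sestrins, stress-induced proteins that restrain growth signalling through mTORC1, split apart. Sesn1 (chr10:41809935-41908424, plus strand) had 105, 97.1 and 112 normalized counts with LPS+IFNg, 757, 761 and 679 with IL4, 314, 367 and 336 with TGFb, and 388, 422 and 465 (lowest, median and highest) in untreated cells. The 4 groups did not overlap, and all neighbours in the order IL4, untreated, TGFb, LPS+IFNg differed in the test. The log2 fold change was -2.01 (SE 0.073, adjusted p 3.16e-14) with LPS+IFNg, which left 0.246 of the untreated mean, 0.78 (SE 0.073, adjusted p 3.92e-07) with IL4 and -0.33 (SE 0.073, adjusted p 0.00116) with TGFb. Sesn1 was the gene of the 10 with the most distinct levels over the groups.

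Sesn2 (chr4:132492032-132510501, minus strand), a leucine sensor that is also a target of the stress factor ATF4, moved the other way with LPS+IFNg. Its normalized counts were 350, 400 and 303 with LPS+IFNg, 194, 219 and 240 with IL4, 146, 107 and 131 with TGFb, and 203, 216 and 229 (lowest, median and highest) in untreated cells. LPS+IFNg lay above and TGFb below every untreated library, while IL4 spread across the untreated range. The log2 fold change was 0.69 (SE 0.11, adjusted p 1.73e-05) with LPS+IFNg, -0.76 (SE 0.11, adjusted p 9.50e-06) with TGFb and 0.01 (95% interval -0.21 to 0.23, adjusted p 0.972) with IL4. Predicted transcripts overlap Sesn1 (9930024M15Rik) and Sesn2 (Gm12981), and reads shared with them cannot be told apart here.

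Per kilobase of transcript, the ratio of the Sesn1 to the Sesn2 level within a library was 0.278 ± 0.058 with LPS+IFNg (SD, n = 3), 3.10 ± 0.49 with IL4 (n = 3), 2.48 ± 0.60 with TGFb (n = 3) and 1.80 ± 0.15 in untreated cells (n = 6). Sesn1 was thus the more abundant of the pair in all groups other than LPS+IFNg, where the order turned round in each of the 3 libraries, at 0.275, 0.222 and 0.337. The TGFb ratios were 1.96, 3.14 and 2.35, of which the lowest lay just under the highest untreated ratio, 1.97, and the other 2 above it.

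**Figure D3:**
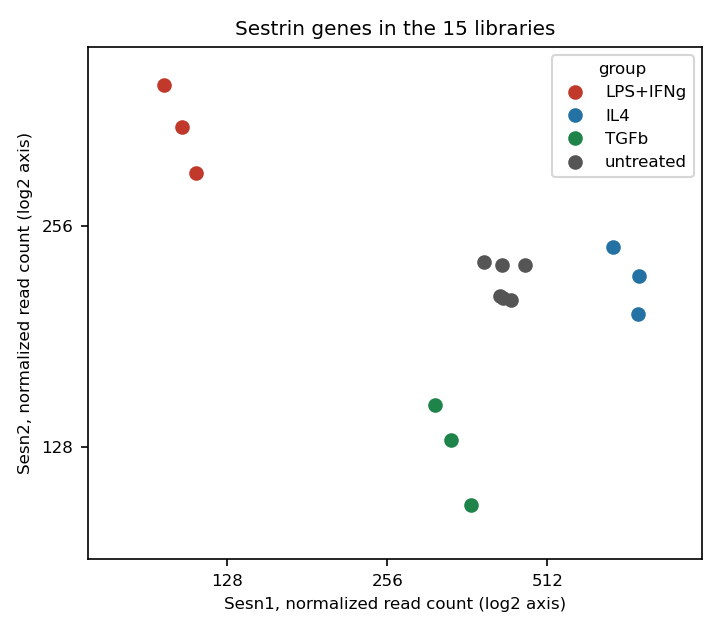
Normalized read count of Sesn1 (horizontal, log2 axis) against Sesn2 (vertical, log2 axis) in the 15 libraries, 1 point each, coloured by group. LPS+IFNg libraries sit at the upper left, IL4 at the right, TGFb at the bottom and untreated in between, with no overlap between the clouds.

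Phlda3 (chr1:135766119-135769136, plus strand), a membrane-binding protein that keeps the survival kinase AKT from its site of activation, responded to 1 stimulus. It had 277, 299 and 307 normalized counts with LPS+IFNg, 263, 294 and 317 with IL4, 736, 666 and 789 with TGFb, and 266, 288 and 313 (lowest, median and highest) in untreated cells. TGFb stood clear of all other libraries, which overlapped one another. Phlda3 was 2.52-fold higher with TGFb than in untreated cells, a log2 fold change of 1.33 (SE 0.077, adjusted p 1.22e-10). It was 0.02 with LPS+IFNg (95% interval -0.14 to 0.19, adjusted p 0.800) and 0.01 with IL4 (95% interval -0.15 to 0.17, adjusted p 0.969). In the direct comparisons Phlda3 was lower with LPS+IFNg than with TGFb by a log2 fold change of -1.31 (adjusted p 3.02e-10) and lower with IL4 than with TGFb by -1.32 (adjusted p 1.17e-09).

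Trp53inp1 (chr4:11156431-11174379, plus strand), a nuclear stress protein that promotes autophagy and cell death, rose with both LPS+IFNg and TGFb. Its normalized counts were 530, 443 and 670 with LPS+IFNg, 381, 347 and 386 with IL4, 479, 540 and 512 with TGFb, and 393, 427 and 436 (lowest, median and highest) in untreated cells. The LPS+IFNg and TGFb libraries were all above the untreated range, the lowest of them only just, and the IL4 libraries were all below it. The log2 fold change was 0.36 (SE 0.091, adjusted p 0.00212) with LPS+IFNg, 0.28 (SE 0.091, adjusted p 0.0163) with TGFb and -0.17 (SE 0.091, adjusted p 0.216) with IL4. The value with IL4 passed when each library was rescaled to the same total (-0.24, adjusted p 0.0431) and in a fit on both groups alone (-0.17, adjusted p 0.0440). Without LPS+IFNg replicate 3 the value with LPS+IFNg was 0.21 (adjusted p 0.0220), and the call with TGFb was lost without TGFb replicate 2 (0.24, adjusted p 0.0855) and without TGFb replicate 3 (0.28, adjusted p 0.0511).

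Bax (chr7:45461697-45466898, minus strand), which permeabilises mitochondria in apoptosis, was the most abundant of the 10 per kilobase and among the steadiest. It averaged 1330 ± 102 normalized counts with LPS+IFNg, 1468 ± 66.2 with IL4, 1310 ± 80.0 with TGFb (SD, n = 3 each) and 1460 ± 86.2 in untreated cells (n = 6), and all groups overlapped untreated. The log2 fold changes were -0.14 with LPS+IFNg (adjusted p 0.0583), 0.01 with IL4 (95% interval -0.12 to 0.13, adjusted p 0.945) and -0.16 with TGFb (adjusted p 0.0376). The value with LPS+IFNg passed the test at -0.26 (adjusted p 0.000709) when each library was rescaled to the same total and at -0.16 (adjusted p 0.0419) without LPS+IFNg replicate 3, and it also passed without LPS+IFNg replicate 2 (-0.18, adjusted p 0.0320) or untreated replicate 5 (-0.16, adjusted p 0.0344). The call with TGFb was lost without TGFb replicate 1 or 3 or untreated replicate 1, 4 or 6 (-0.11 to -0.17, adjusted p 0.0594 to 0.222). The coding gene Gm45808 overlaps Bax on the same strand, so that reads may be shared.

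Zmat3 (chr3:32334792-32366014, minus strand), a zinc finger protein that binds RNA and tunes splicing and message stability, fell with TGFb. Its normalized counts were 670, 667 and 983 with LPS+IFNg, 650, 620 and 603 with IL4, 552, 581 and 557 with TGFb, and 633, 670 and 739 (lowest, median and highest) in untreated cells. TGFb lay under the untreated range, and LPS+IFNg replicate 3 was the one library outside it on the high side. The log2 fold change with TGFb was -0.27 (SE 0.094, adjusted p 0.0218), with LPS+IFNg 0.16 (SE 0.094, adjusted p 0.155) and with IL4 -0.13 (adjusted p 0.407). The value with LPS+IFNg was -0.03 (adjusted p 0.733) without replicate 3 of that group, and it passed without replicate 1 (0.25, adjusted p 0.0456) or 2 (0.25, adjusted p 0.0392). The call with TGFb was lost without TGFb replicate 1 (-0.26, adjusted p 0.0737) or 3 (-0.27, adjusted p 0.0678).

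Without the 3 shallowest libraries, 1 of the 10 genes, Phlda3, was called higher with TGFb and 2, Sesn1 and Sesn2, lower. The calls of Mdm2 (-0.13), Ccng1 (-0.13), Bax (-0.15), Zmat3 (-0.24) and Trp53inp1 (0.26) with TGFb were lost there, with adjusted p from 0.1004 to 0.160.

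Between stimuli, 5 of the 10 genes were called higher with LPS+IFNg than with IL4 and 1 lower (backgrounds 28.8% and 28.8%). With LPS+IFNg against TGFb 6 were higher and 2 lower (31.9% and 30.8%), and with IL4 against TGFb 4 were higher and 2 lower (20.7% and 19%). Sesn1 had the widest gap, a log2 fold change of -2.79 (SE 0.084, adjusted p 2.66e-15) with LPS+IFNg against IL4. Cdkn1a did not differ between these stimuli in the test (-0.02, 95% interval -0.24 to 0.20, adjusted p 0.890). Without LPS+IFNg replicate 3 it was lower with LPS+IFNg by -0.21 (adjusted p 0.00719), and the difference of Zmat3 between LPS+IFNg and IL4, 0.29 (adjusted p 0.0306), became 0.10 (adjusted p 0.226). This Zmat3 difference also lost its call without IL4 replicate 2 (0.28, adjusted p 0.0698) or 3 (0.26, adjusted p 0.0869). Against TGFb, LPS+IFNg gave 0.39 for Cdkn1a (adjusted p 0.00352) and 0.43 for Zmat3 (adjusted p 0.00190), which became 0.20 and 0.25 without that library and kept their calls.

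In untreated cells the genes spanned a wide range per kilobase of the longest transcript. Bax had 1328 normalized counts per kilobase, higher than 97.2% of the 10701 genes with a length, and Cdkn1a 1020, higher than 95.9%. Ccng1 (376), Mdm2 (248), Trp53 (216) and Phlda3 (202) followed. Sesn1 (112), Zmat3 (87.5), Trp53inp1 (77.2) and Sesn2 (62.1) were in the middle of the distribution, the last above 41.9% of genes. For the 10 genes the untreated libraries agreed closely, with coefficients of variation from 4.15% for Mdm2 to 6.88% for Trp53. Summed over the 10 genes, the share of all normalized counts was 0.121% to 0.135% with LPS+IFNg and 0.117% to 0.121% with IL4. It was 0.104% to 0.105% with TGFb and 0.109% to 0.116% in untreated cells. The highest share was that of LPS+IFNg replicate 3, and replicates 1 and 2 of that group had 0.121% and 0.124%.

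The kinases, ligases and other regulators that control p53 included single genes with large changes with LPS+IFNg. Of 18 tested regulators 7 rose and 4 fell with LPS+IFNg (5 and 7 when each library was rescaled to the same total), 1 rose and 1 fell with IL4, and 2 rose and 5 fell with TGFb. Over all genes tested, the shares called were 29.5% higher and 29.4% lower with LPS+IFNg, 9.89% and 7.33% with IL4, and 24.1% and 23.4% with TGFb. When rescaled, 2435 of 11138 genes were called higher and 4416 lower with LPS+IFNg. Nothing is therefore read from the counts of regulators with LPS+IFNg or their falls with TGFb. Atm, the kinase that signals DNA double-strand breaks to p53, had 2911 ± 161 normalized counts with LPS+IFNg (SD, n = 3) and 755 ± 11.6 in untreated cells (n = 6), a log2 fold change of 1.94 (adjusted p 5.10e-14). Pml, the scaffold of nuclear bodies that hold p53, had 741 ± 227 and 219 ± 18.0 (1.72, adjusted p 6.26e-10), and Mdm4, the partner of Mdm2, had 922 ± 159 and 477 ± 43.2 (0.94, adjusted p 2.74e-08). Hipk2, a kinase that phosphorylates p53, was lower with LPS+IFNg at 433 ± 64.0 against 710 ± 44.7 in untreated cells (-0.72, adjusted p 8.47e-07) and higher with IL4 at 974 ± 54.7 (0.46, adjusted p 0.00100). With TGFb the ligase gene Rchy1 fell by 0.58 on the log2 scale (adjusted p 0.00163) and Trp53bp1, a reader of damaged chromatin, rose by 0.31 (adjusted p 0.000275).

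Other known p53 targets that act in arrest and repair included genes moving in both directions with every stimulus. Of these 20 genes 8 rose and 5 fell with LPS+IFNg, 2 rose and 4 fell with IL4, and 6 rose and 6 fell with TGFb. When rescaled to the same total these counts were 6 and 6 with LPS+IFNg, 1 and 6 with IL4, and 5 and 7 with TGFb. That rescaling called 2435 of 11138 genes higher and 4416 lower with LPS+IFNg. It called 748 and 1449 with IL4, and 2029 and 3341 with TGFb. Before rescaling, the counts with LPS+IFNg and TGFb are near the shares over all genes. Those shares are 29.5% higher and 29.4% lower with LPS+IFNg and 24.1% and 23.4% with TGFb. Plk2, a stress-induced kinase, had 5335 ± 389 normalized counts with LPS+IFNg and 2028 ± 79.6 in untreated cells (1.39, adjusted p 1.10e-13), and fell with TGFb to 1166 ± 92.3 (-0.80, adjusted p 1.19e-09). Gadd45a, which senses damage and stress, had 377 ± 141 with LPS+IFNg and 50.1 ± 9.47 in untreated cells (2.85, adjusted p 1.69e-10). Ccng2, a relative of Ccng1, rose with LPS+IFNg (1.51, adjusted p 3.95e-11) and TGFb (1.34, adjusted p 7.14e-10). Plk3 rose with TGFb, at 364 ± 47.9 against 93.2 ± 21.5 in untreated cells (1.98, adjusted p 3.07e-08).

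Of 14 targets in cell death 6 rose and 4 fell with LPS+IFNg (4 and 5 when rescaled to the same total), 1 rose and 2 fell with IL4, and 1 rose and 4 fell with TGFb. Over all genes 29.5% were called higher and 29.4% lower with LPS+IFNg, 9.89% and 7.33% with IL4, and 24.1% and 23.4% with TGFb. The falls with LPS+IFNg and TGFb are near these shares. When rescaled, 2435 of 11138 genes were called higher and 4416 lower with LPS+IFNg. Dram1, an inducer of autophagy, had 703 ± 32.6 normalized counts with LPS+IFNg and 269 ± 17.7 in untreated cells (1.38, adjusted p 1.95e-11). The death receptor gene Fas was near the lowest value of the table in the other groups. It had 518 reads over the LPS+IFNg libraries and 3 over the untreated ones, a depth-adjusted ratio of 283 (95% exact Poisson interval 96.2 to 1376, counting error only), and values at the lowest value of the table allow at most 5 untreated reads. Pmaip1, which encodes Noxa, fell with LPS+IFNg (-0.47, adjusted p 0.00107) and TGFb (-0.97, adjusted p 5.77e-07).

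Of the 12 tested metabolic targets 2 rose and 8 fell with LPS+IFNg, 7 rose and 2 fell with TGFb, and 5 rose with IL4, against the shares over all genes given above. Sod2, the mitochondrial superoxide dismutase, had 3732 ± 882 normalized counts with LPS+IFNg and 782 ± 26.1 in untreated cells (2.23, adjusted p 7.39e-13). 9630033F20Rik, which RefSeq names Tigar and whose product diverts sugar from glycolysis, had 372 ± 33.8 with LPS+IFNg, 1025 ± 57.1 with TGFb and 606 ± 36.2 in untreated cells (-0.70 and 0.76, adjusted p 2.71e-08 and 2.24e-08). Gpx1, a glutathione peroxidase, rose with IL4 (0.39, adjusted p 0.000558) and TGFb (0.78, adjusted p 3.64e-08).

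Among 8 tested relatives of Bax in the BCL2 family, 5 rose and 2 fell with LPS+IFNg. With IL4 3 rose and 1 fell (2 and 2 when rescaled to the same total), and with TGFb 3 rose. Among all genes, 29.5% rose and 29.4% fell with LPS+IFNg, 9.89% and 7.33% with IL4, and 24.1% and 23.4% with TGFb. When rescaled, 748 of 11138 genes were called higher and 1449 lower with IL4. Anti-apoptotic Bcl2 had 493 ± 131 normalized counts with LPS+IFNg, 312 ± 31.0 with IL4, 358 ± 7.12 with TGFb and 234 ± 26.7 in untreated cells, and pro-apoptotic Bcl2l11 rose with all 3 stimuli (0.78, 0.37 and 0.35). Bmf, another pro-apoptotic member, fell with LPS+IFNg (-0.75, adjusted p 8.53e-05) and rose with TGFb (1.02, adjusted p 4.83e-06). Bcl2 with IL4 lost its call without the 3 shallowest libraries (0.39, adjusted p 0.0604).

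The cell cycle genes downstream of p21 were lower with 2 stimuli. Of 15 cell cycle genes that the DREAM complex represses when p21 is active, 13 fell with IL4 and 15 with TGFb. With LPS+IFNg 6 rose and 3 fell. The shares over all genes tested were 7.33% lower with IL4, 23.4% lower with TGFb, and 29.5% higher and 29.4% lower with LPS+IFNg. The median log2 fold changes of the list were -0.36 with IL4, -0.64 with TGFb and 0.05 with LPS+IFNg, against 0.0011, 0.014 and 0.0039 over all genes. Mybl2, a driver of mitotic genes, had 1001 ± 132 normalized counts with LPS+IFNg, 931 ± 20.0 with IL4, 737 ± 27.6 with TGFb and 1295 ± 35.8 in untreated cells. Aurka, a mitotic kinase, fell to 352 ± 4.74 with TGFb, against 747 ± 21.8 in untreated cells (-1.08, adjusted p 8.09e-12). Cdkn1a itself was called higher with LPS+IFNg and IL4 and not called with TGFb. Its log2 fold change with LPS+IFNg was 0.16 without LPS+IFNg replicate 3, and its call with IL4 was lost without IL4 replicate 2. Protein was not measured, and whether p21 has a part in the falls of these genes was not tested.

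Of 15 cyclins, kinases and their transcription factors 5 rose and 7 fell with LPS+IFNg, 5 fell with IL4, and 1 rose and 11 fell with TGFb. Of all genes, 29.5% rose and 29.4% fell with LPS+IFNg, 9.89% and 7.33% with IL4, and 24.1% and 23.4% with TGFb. Ccne2 fell to 75.0 ± 34.1 normalized counts with LPS+IFNg, against 349 ± 42.3 in untreated cells (-2.29, adjusted p 1.74e-09), and Ccnd1 fell to 880 ± 28.5 with TGFb, against 1698 ± 87.1 (-0.95, adjusted p 3.02e-10). Myc, which p53 is known to repress, was at 114 ± 53.2 with LPS+IFNg, 48.1 ± 4.92 with TGFb and 20.9 ± 5.70 in untreated cells (2.34 and 1.21, adjusted p 1.83e-07 and 0.000578). Of the 3 other CDK inhibitors tested, Cdkn2d rose (0.47) and Cdkn2c fell (-0.51) with LPS+IFNg, and Cdkn1b rose (0.44, adjusted p 0.0248) but lost its call without LPS+IFNg replicate 3 (0.32, adjusted p 0.138), without the 3 shallowest libraries (0.43, adjusted p 0.0562), after quantile normalization (0.30, adjusted p 0.111) and when rescaled to the same total (0.31, adjusted p 0.0928). In limma none of the 3 was called with IL4 or TGFb, where 0 and 1 passed an unadjusted p below 0.05.

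The ATF4 stress targets, which respond to amino acid shortage and endoplasmic reticulum stress, are given here because Sesn2 is also a target of ATF4. All 10 tested rose with LPS+IFNg, with a median of 1.15 on the log2 scale. With TGFb 7 fell, with a median of -0.89, and with IL4 2 rose and 4 fell. The shares over all genes tested were 29.5% higher with LPS+IFNg, 23.4% lower with TGFb, and 9.89% higher and 7.33% lower with IL4. The medians over all genes were 0.0039 with LPS+IFNg and 0.014 with TGFb. Ddit3, the stress factor CHOP, had 1269 ± 471 normalized counts with LPS+IFNg and 239 ± 12.7 in untreated cells (2.35, adjusted p 2.29e-11). Asns, asparagine synthetase, had 1886 ± 12.4 with LPS+IFNg, 204 ± 24.3 with TGFb and 744 ± 42.4 in untreated cells (1.34 and -1.87, adjusted p 2.95e-12 and 1.58e-13). Psat1, an enzyme of serine synthesis, fell to 1185 ± 29.3 with TGFb, against 3313 ± 149 in untreated cells (-1.48, adjusted p 2.04e-14).

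**Figure D4:**
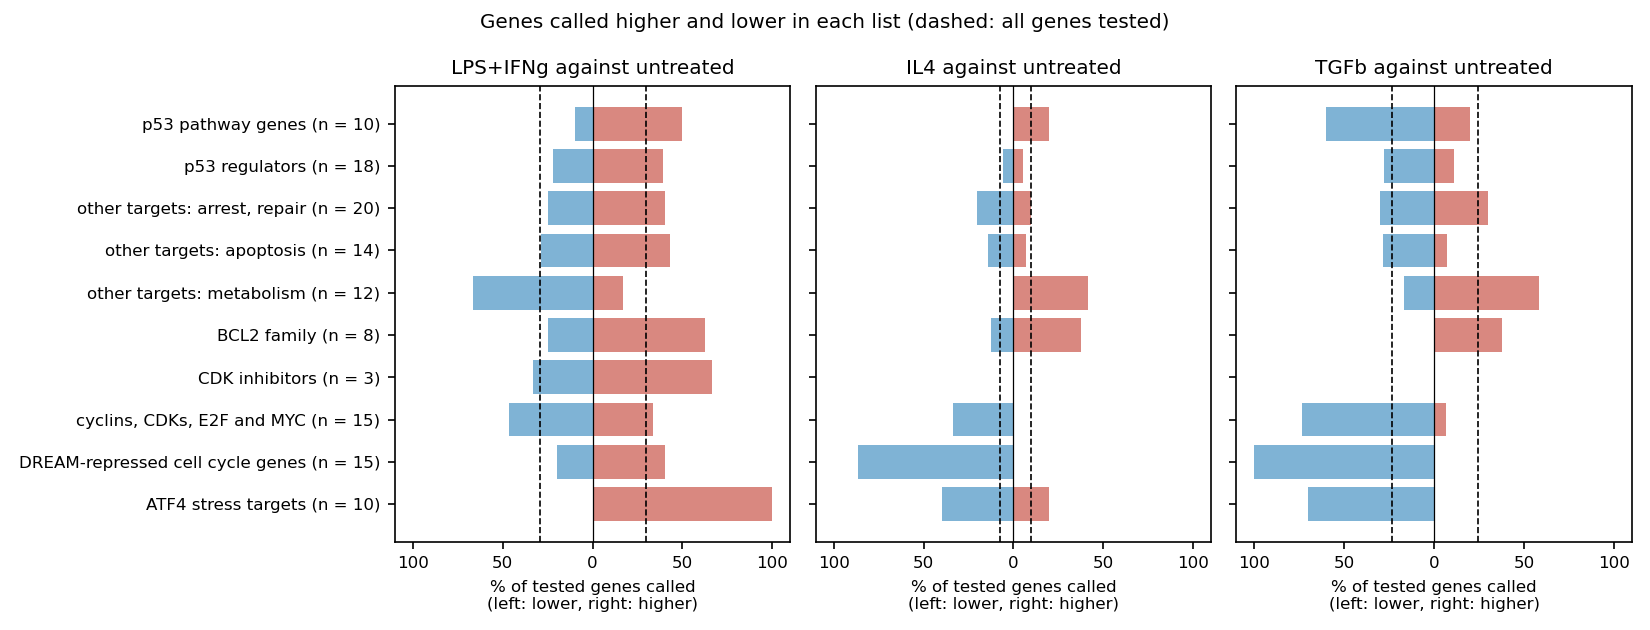
Percentage of the tested genes of each list called higher (to the right) and lower (to the left) with LPS+IFNg, IL4 and TGFb against untreated, with dashed lines at the percentages over all genes tested. The ATF4 stress targets reach 100% higher with LPS+IFNg and the DREAM-repressed genes 100% lower with TGFb. The p53 pathway genes have 5 of 10 higher with LPS+IFNg and 6 of 10 lower with TGFb. That count of 6 was 2 without TGFb replicate 1 and 2 without TGFb replicate 3.

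The genes most like 3 of the members were found as those whose 4 group means of log2(value + 1), centred over the groups, had the smallest root mean square difference among 9543 genes. For Mdm2 these were Gemin8 (0.0186), Nfe2l1 (0.0214) and Abcd4 (0.0261), with Nfe2l1 at 3884 normalized counts with LPS+IFNg, 1611 with IL4, 1511 with TGFb and 1615 in untreated cells. For Cdkn1a they were Fdx1l (0.0370), Rpl22l1 (0.0376) and Actr6 (0.0386), and for Ccng1 Cmpk1 (0.0116), Pcgf3 (0.0119) and Arhgap35 (0.0122). The likeness rests on 4 means and describes these libraries.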

How the data were processed

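Total RNA (TRIZOL) went into TruSeq RNA libraries, per the labels' protocols. Per the submitters' processing notes, TopHat2 2.0.3, Partek 6.6, R 3.0.2, DESeq2 and build mm10 were used. The annotation, the counting rule and the use of strand are not given in the sources used here. The table deposited by the authors holds a normalized signal, read counts divided by 1 factor per library, with values below 1 set to 1. Division by a step fitted to the low values of each library gave whole reads for 100% of its values above 1. The tolerance was 0.01 reads, or the rounding of the printed value where that was larger.

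Tests used limma 3.58.1 (R 4.3.3) on log2(value + 1) in 1 fit over the 15 libraries with a mean-variance trend and 6 comparisons. A gene was tested if 3 or more libraries reached 10, which left 11138 of 11201 genes, with Benjamini-Hochberg adjustment over all of them and calls at an adjusted p below 0.05. Fold changes on this scale understate the change of low genes. The procedure was checked on simulated data. The exact Poisson interval and the limits on reads hold counting error alone, since PCR copies cannot be recognised here. Levels per kilobase use the longest GENCODE M21 transcript.

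The genes and lists were chosen with earlier results of these data known, and the lists describe without a test of their own. All members were named. From each list, examples came from up to 3 called genes higher and 3 lower by moderated statistic in each comparison, and the most alike genes were sought for Cdkn1a, Mdm2 and Ccng1, leaving out predicted genes, RIKEN clones and other members. The 25 alternatives were other pseudocounts, filters, scalings and limma settings, fits without single libraries or the 3 with the fewest reads, and, chosen after seeing the data, library weights. The list counts without LPS+IFNg replicate 3, without the 3 libraries with the fewest reads and under other scalings were also added after seeing the data.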

Additional observations from a re-analysis of the deposited data

How the results depend on the processing

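Over 25 alternatives, 1432 of the values for the 10 genes in 6 comparisons kept their side of the threshold. Of the rest, 29 gained a call and 39 lost one, and 0 values turned round with a call. The 1432 include values that had no call in either fit and changed sign. An example is Zmat3 with LPS+IFNg against untreated, at 0.16 and, without LPS+IFNg replicate 3, -0.03. The calls against untreated of Mdm2, Sesn1, Sesn2, Trp53, Cdkn1a and Trp53inp1 with LPS+IFNg, of Sesn1 with IL4, and of Sesn1, Sesn2 and Phlda3 with TGFb held in all 25.

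Rescaling each library to the same total gave 2 genes lower with LPS+IFNg against untreated (1 as reported), 2 lower with IL4 against untreated (0 as reported, by limma, with 1 at an unadjusted p below 0.05) and 2 lower with LPS+IFNg against IL4 (1 as reported). Quantile normalization gave 2 in the first and 2 in the last of these. Library weights gave 2 lower with LPS+IFNg against untreated and 3 lower with LPS+IFNg against IL4. A fit on the libraries of both groups alone gave 1 lower with IL4. With TGFb against untreated, limma without the trend gave 3 lower (6 as reported). Without the 3 libraries with the fewest reads, 1 was higher with IL4 (2 as reported), and with TGFb 1 was higher (2 as reported) and 2 lower. The cause of these shifts was not tested.

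Leaving out single libraries gave 1 to 2 genes lower with LPS+IFNg against untreated and 1 to 2 lower with LPS+IFNg against IL4, 1 to 2 higher with IL4, and 1 to 2 higher and 2 to 6 lower with TGFb. With TGFb it was 2 lower without TGFb replicate 1 or 3 and 3 lower without untreated replicate 4. Count-model tests (edgeR with either scaling, and DESeq2) were not run, since values below 1 were replaced by 1 in the deposited table. No paired analysis was possible because the labels give the groups no shared replicate numbers. Depth limits Sesn2 most, at 50 reads in 1 TGFb library.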

Other observations

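Of the 29 genes whose upstream window holds the p53 element, 7 were in the table. Besides Cdkn1a and Ccng1 these were Gtse1, which encodes a microtubule protein that restrains p53, the folate enzyme gene Mthfd1, the ribosomal protein gene Rps27l, Calhm2 and Sptbn4. Of the 7, 2 rose and 1 fell with LPS+IFNg, 1 rose and 1 fell with IL4, and 4 fell with TGFb. Over all genes tested 29.5% were higher and 29.4% lower with LPS+IFNg, 9.89% and 7.33% with IL4, and 24.1% and 23.4% with TGFb, so the count of 2 with LPS+IFNg is at the level of all genes. Gtse1 had 1107 ± 82.1 normalized counts with LPS+IFNg, 746 ± 41.8 with IL4, 709 ± 14.5 with TGFb (SD, n = 3 each) and 934 ± 22.6 in untreated cells (n = 6), with log2 fold changes of 0.24, -0.33 and -0.40 (limma adjusted p 0.000506, 0.000204 and 4.41e-06). Mthfd1 fell with LPS+IFNg (-0.29, adjusted p 0.000371) and with TGFb (-0.52, adjusted p 9.13e-07). Rps27l was 490 ± 10.6 with TGFb and 582 ± 39.0 in untreated cells (-0.24, adjusted p 0.00421). Calhm2 and Sptbn4 were not called against untreated.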
